A study of Homo sapiens with 6 samples.

Results

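The BCL2 family decides whether the outer membrane of the mitochondrion is opened during apoptosis. Its 10 members described here were the rows of the count table whose gene name was *MCL1*, *BCL2L1*, *BCL2L2*, *BAX*, *BAK1*, *BCL2L11*, *PMAIP1*, *BBC3*, *BID* or *BAD*, out of 17222 gene names. The rule takes them by name, although the list was drawn up with earlier results of these data known, and all 10 passed the filter on low counts that left 14660 genes for testing. RNA was sequenced from H226 cells, an established human squamous lung carcinoma line, collected 48 h after transient transfection. In 3 libraries the cells carried ASO_LINC, an antisense oligonucleotide against the lncRNA *SWINGN* (*LINC00565*), and in 3 libraries they carried the control oligonucleotide ASO_CTRL. A single targeting oligonucleotide (ASO_LINC#3) and a single cell line were used, and depletion could not be checked in these libraries, since *SWINGN* was not analysed here. The labels do not say whether the 3 libraries of a condition came from separate cultures, so p-values measure the spread between these samples, which may be technical.

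In healthy cells the anti-apoptotic proteins hold the pore-forming effectors and their activators in check. The BH3-only proteins are induced or modified under stress, bind the groove of the anti-apoptotic proteins, and in some cases engage the effectors directly. When the effectors oligomerise, cytochrome c leaves the mitochondrion, the apoptosome assembles and caspases are activated. MCL1 and NOXA, the product of *PMAIP1*, are short-lived proteins, and many other members are set by protein turnover, phosphorylation, cleavage or splicing. None of these layers is read by a count of mRNA per gene, which for *MCL1*, *BCL2L1* and *BCL2L11* also sums splice forms of different activity.

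Of the 10 members, *MCL1* and *PMAIP1* rose in ASO_LINC cells and no member fell. The test was edgeR's quasi-likelihood test with Benjamini-Hochberg adjustment over all tested genes, and a call needed both a log2 fold change past 0.5 in either direction and an adjusted p under 0.01. Of all tested genes 7.54% were called, 4.91% as higher and 2.63% as lower. *MCL1* was 2.24-fold higher and *PMAIP1* 2.51-fold higher, and their proteins are a known binding pair of an anti-apoptotic and a BH3-only protein. The 3 knockdown libraries lay above all 3 control libraries for *MCL1*, *BCL2L2*, *BCL2L11*, *PMAIP1* and *BBC3*, and below them for 0 members. Among all tested genes 36.1% were separated in this way, 18.7% in the higher direction and 17.3% in the lower. The median log2 fold change of the members was 0.24, beside -0.0027 over all genes tested, and 7 of the 10 were above 0, beside 49.7% of all genes.

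**Figure D1:**
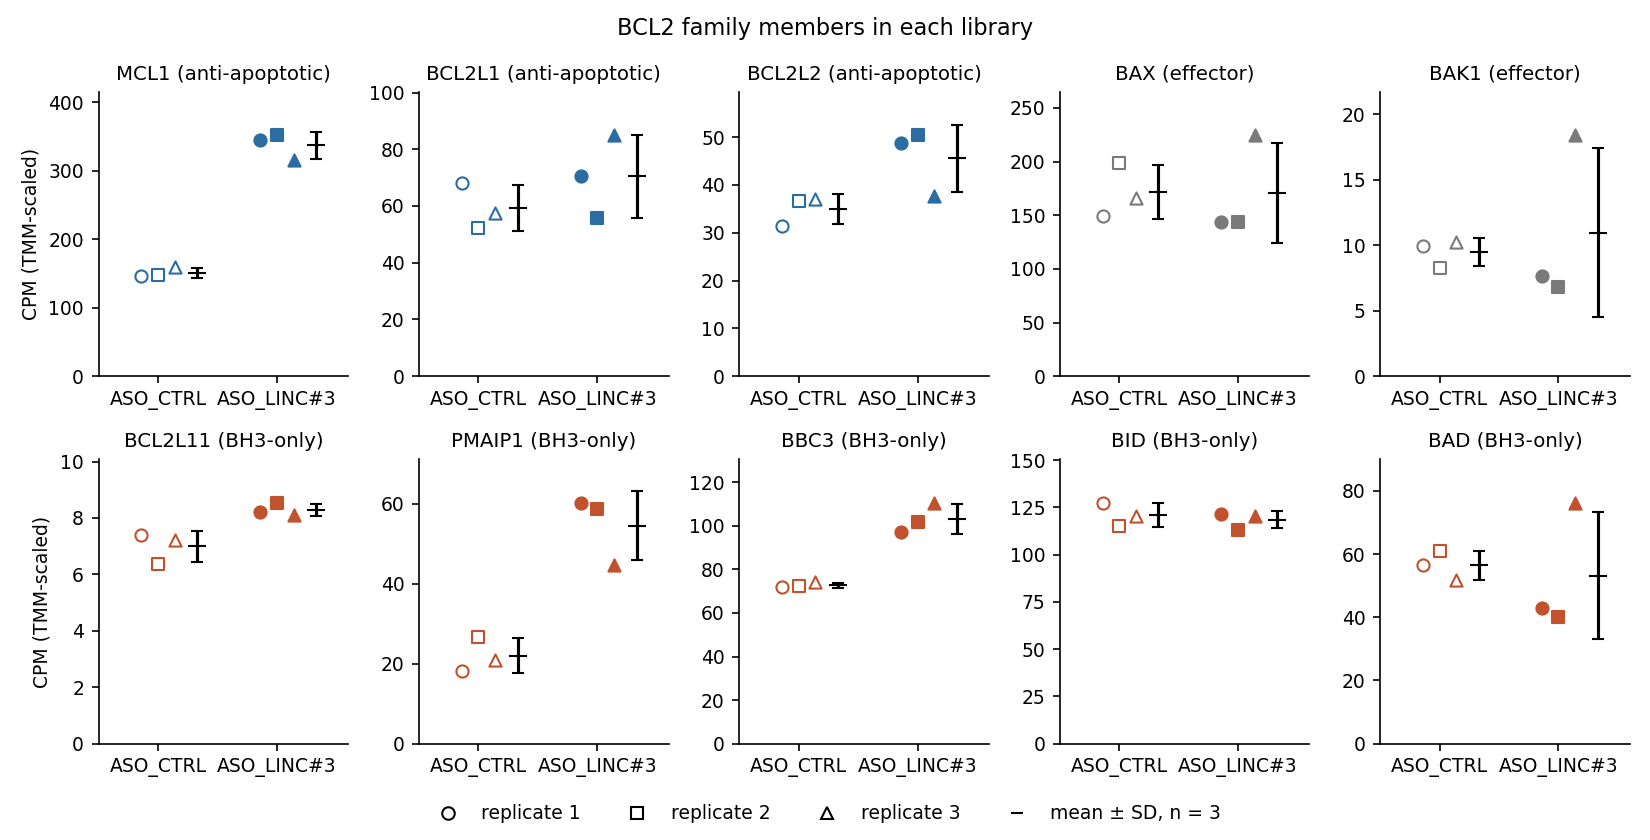
CPM (counts scaled to a common library size) of the 10 members in each library, on a linear axis, with points for single libraries and a bar for the mean and SD of each condition. The 3 ASO_LINC libraries of *MCL1* lie from 315 to 352, above the ASO_CTRL libraries at 146 to 159, those of *BID* (113 to 122) overlap their controls, and those of *BAX* (144 to 224) lie on both sides of theirs.

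ASO_LINC replicate 3 had the fewest reads on genes of the 6 libraries, 3686828 of a range that reached 10546786, and it stood apart from the other knockdown libraries for several members. Among the keratins of simple epithelium, *KRT7*, *KRT8*, *KRT18* and *KRT19* summed to 11669 to 12612 CPM in control and 7086 to 12400 CPM in knockdown libraries, while *EPCAM* and *CDH1* were not analysed here. The squamous keratins *KRT5* and *KRT6A* summed to 94.2 to 117 and 63.3 to 78.7 CPM, and *TP63*, *SOX2*, *KRT14* and *DSG3* were not analysed here. *KRT6A* went against the sum, at 0, 0 and 1 reads in the control libraries and 14, 5 and 4 reads in the knockdown libraries. The summed mesothelial markers *MSLN*, *WT1*, *CALB2* and *UPK3B* were at 632 to 832 and 208 to 322 CPM, and *COL1A1*, *COL3A1* and *THY1* at 387 to 485 and 220 to 248 CPM. Most of the mesothelial sum was *CALB2*, with means of 600 and 154 CPM. *UPK3B* (49.3 and 26.4 CPM) was also separated, while *MSLN* (29.0 and 31.0 CPM) and *WT1* (45.9 and 36.5 CPM) overlapped. *COL1A1* (320 and 124 CPM) and *COL3A1* (10.8 and 3.48 CPM) were separated, and *THY1* (116 and 104 CPM) overlapped. The leukocyte marker *CD14* was near 0, at 1.48 to 2.09 and 0.733 to 2.16 CPM. In bulk RNA, a change in the mix of cells and a change of RNA per cell cannot be told apart.

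*MCL1*, on the reverse strand of chromosome 1 (chr1:150533371-150552214, GRCh37), encodes an anti-apoptotic protein that holds BAK and several BH3-only proteins. It stood at 146, 147 and 159 CPM in the 3 control libraries and at 346, 352 and 315 CPM in the 3 knockdown libraries. Every knockdown library was therefore above every control library, by a wide margin, and replicate 3 was the lowest of the knockdown libraries. The mean was 151 ± 7.44 CPM in control and 338 ± 19.6 CPM in knockdown cells (SD, n = 3). The log2 fold change was 1.16 (SE 0.12, 95% confidence interval 0.90 to 1.43, edgeR adjusted p = 0.00016), and the gene had the p-value of rank 108 among the 14660. The rise held without any single library, at log2 fold changes from 1.14 to 1.21.

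The other anti-apoptotic genes did not pass the test. *BCL2L1*, the BCL-X gene (chr20:30252255-30311792, reverse strand), whose long form is anti-apoptotic and whose short form is not, was at 68.3, 52.2 and 57.6 CPM in control and 70.7, 55.8 and 84.9 CPM in knockdown libraries. The conditions overlapped, and the highest value was that of ASO_LINC replicate 3. Its log2 fold change was 0.24 (95% confidence interval -0.14 to 0.63, edgeR adjusted p = 0.371). *BCL2L2*, which encodes BCL-w (chr14:23767999-23780960, forward strand), was at 31.3, 36.6 and 37.02 CPM in control and 48.8, 50.4 and 37.6 CPM in knockdown libraries. The knockdown libraries lay above the controls, but replicate 3 only just. The log2 fold change of *BCL2L2* was 0.39 (SE 0.16, 95% confidence interval 0.04 to 0.73, edgeR adjusted p = 0.110). Without ASO_LINC replicate 3 it was 0.50 with an adjusted p of 0.00866 in the same edgeR test, which was past both thresholds.

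The effector genes showed no detectable change in either direction, with wide intervals. *BAX* (chr19:49458072-49465055, forward strand) encodes a cytosolic effector that moves to mitochondria and forms pores. It was at 149, 199 and 166 CPM in control and 144, 144 and 224 CPM in knockdown libraries, so that replicates 1 and 2 of the knockdown were at the low end and replicate 3 was the highest of the 6. The means were 171 ± 25.3 and 171 ± 46.6 CPM (SD, n = 3), and the log2 fold change was -0.01 (95% confidence interval -0.43 to 0.41, edgeR adjusted p = 0.979). *BAK1* (chr6:33540324-33548070, reverse strand) encodes the effector that resides in the outer membrane. It was at 9.94, 8.24 and 10.3 CPM in control and 7.62, 6.83 and 18.4 CPM in knockdown libraries, the same arrangement at a far lower level and on 40 to 108 reads per library. For *BAK1* the log2 fold change was 0.13 (95% confidence interval -0.61 to 0.87, edgeR adjusted p = 0.830), and without ASO_LINC replicate 3 it was -0.40 (95% confidence interval -0.85 to 0.04, edgeR adjusted p = 0.153). Without that library the value of *BAX* was -0.25 (95% confidence interval -0.53 to 0.03, edgeR adjusted p = 0.153). The named pseudogene *BAK1P1* was at 2.69, 2.40 and 3.05 CPM in control and 6.16, 4.27 and 8.38 CPM in knockdown libraries. Whether reads were divided between both copies was not tested, and the counts of *BAK1* are uncertain to that extent.

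Among the BH3-only genes *PMAIP1* rose. Its product NOXA binds MCL1 with high selectivity and promotes its degradation, and the gene is a known target of stress-response factors. *PMAIP1* (chr18:57567228-57571537, GRCh37, forward strand) was at 18.3, 26.8 and 20.8 CPM in control and at 60.3, 58.7 and 44.6 CPM in knockdown libraries. The conditions were well separated, and replicate 3 was again the lowest of the knockdown. The mean was 22.0 ± 4.36 CPM in control and 54.5 ± 8.63 CPM in knockdown cells (SD, n = 3). *PMAIP1* had a log2 fold change of 1.33 (SE 0.18, 95% confidence interval 0.92 to 1.73, edgeR adjusted p = 0.00092), with a p-value of rank 311 among all tested genes. Without ASO_CTRL replicate 3 it was 1.28 with an adjusted p of 0.0105 in the edgeR test, just short of the threshold, and it passed in the 5 other fits that each left out a library.

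*BBC3*, which encodes PUMA (chr19:47724079-47736023, reverse strand), a BH3-only protein that binds the anti-apoptotic members broadly, was higher by a smaller amount. It was at 71.9, 72.4 and 74.1 CPM in control and at 97.4, 102 and 111 CPM in knockdown libraries. The controls were nearly level with each other, and every knockdown library was above them. The means were 72.8 ± 1.17 and 103 ± 6.75 CPM (SD, n = 3), a 1.42-fold difference. The log2 fold change of *BBC3* was 0.50 (SE 0.12, 95% confidence interval 0.23 to 0.77), and its adjusted p of 0.0184 in edgeR's test did not pass. It was past both thresholds with DESeq2 (log2 fold change 0.50, adjusted p = 0.00837), and it was the member added at an adjusted p below 0.05, where 9.7% of all tested genes were called higher. Without ASO_LINC replicate 3 the edgeR adjusted p was 0.00614 but the log2 fold change, at 0.45, was under the bound.

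*BCL2L11*, which encodes BIM (chr2:111876955-111926021, forward strand), an activator of the effectors, was the least abundant member. It was at 7.39, 6.35 and 7.23 CPM in control and 8.21, 8.54 and 8.11 CPM in knockdown libraries, on 30 to 76 reads per library. The knockdown libraries all lay above the controls, by little. The log2 fold change was 0.24 (SE 0.19, 95% confidence interval -0.19 to 0.67, edgeR adjusted p = 0.425), so that no change was detectable at this depth.

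*BID* (chr22:18216904-18257536, reverse strand) encodes the BH3-only protein that caspase-8 cleaves to connect death receptors to mitochondria. It was the steadiest member, at 127, 115 and 120 CPM in control and 122, 113 and 120 CPM in knockdown libraries. The conditions overlapped almost fully, and the log2 fold change was -0.03 (95% confidence interval -0.30 to 0.23, edgeR adjusted p = 0.887). *BAD* (chr11:64037302-64052176, reverse strand), whose protein is held inactive by phosphorylation downstream of growth-factor signalling, was at 56.4, 61.1 and 51.8 CPM in control and 43.1, 39.9 and 76.2 CPM in knockdown libraries. As for *BAX* and *BAK1*, replicates 1 and 2 of the knockdown lay below every control library and replicate 3 above every one. For *BAD* the log2 fold change was -0.10 (95% confidence interval -0.60 to 0.39, edgeR adjusted p = 0.795), and without ASO_LINC replicate 3 it was -0.44 (95% confidence interval -0.70 to -0.17, edgeR adjusted p = 0.0172).

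**Figure D2:**
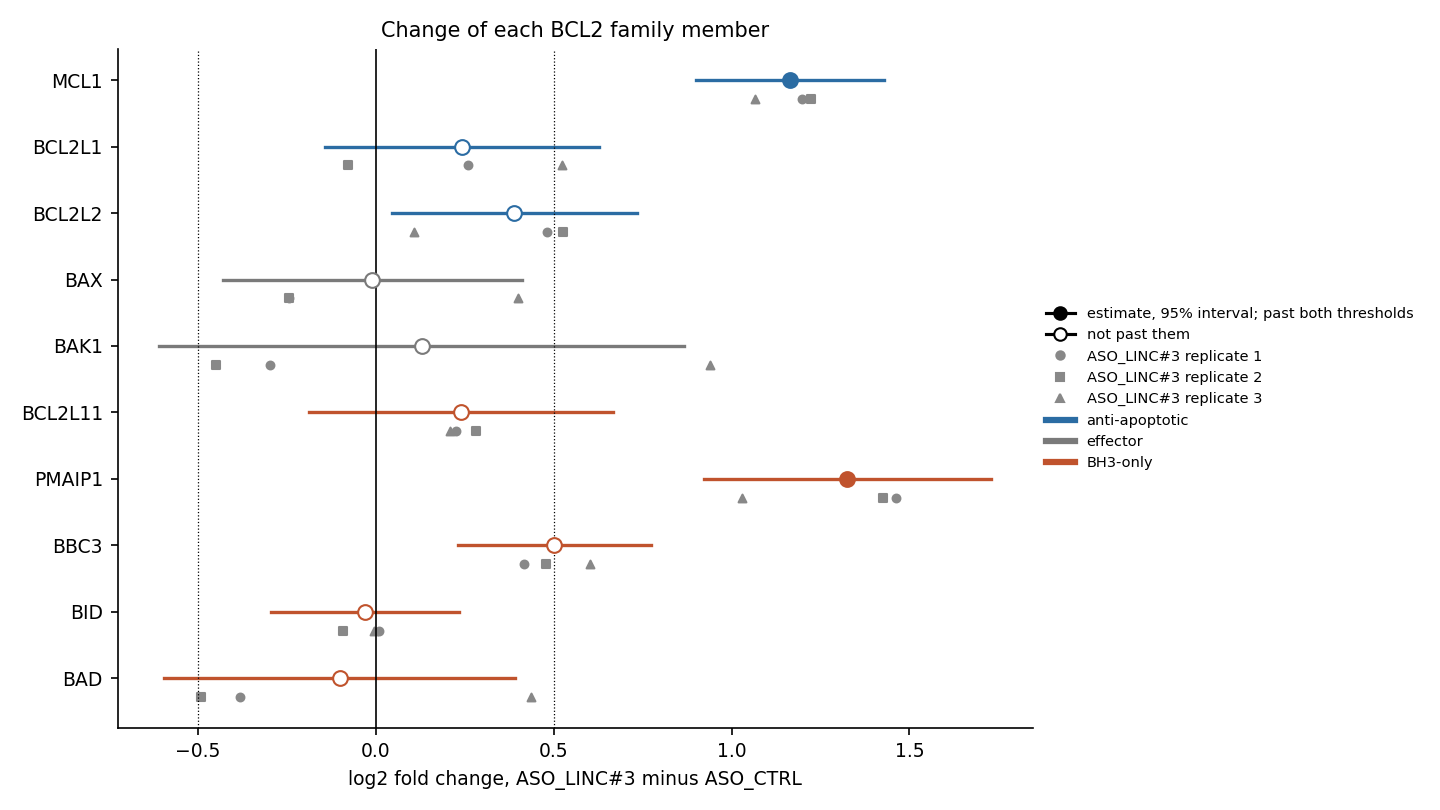
Log2 fold change of each member (ASO_LINC over ASO_CTRL) from the fit over all genes, with bars for the 95% confidence interval and points for the 3 single knockdown libraries against the control mean. *MCL1* (1.16) and *PMAIP1* (1.33) lie beyond the bound of 0.5 with all 3 libraries, while for *BAX*, *BAK1* and *BAD* replicate 3 lies on the other side of 0 from replicates 1 and 2.

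The members for which replicate 3 of the knockdown went the other way were rich in G and C. The longest transcripts of *BAX*, *BAK1* and *BAD* held 58.9%, 58.8% and 66.3% GC, beside a median of 47.8% over tested genes, and that of *PMAIP1* held 36.7%. *BBC3* held 69.7%, the highest of the members, and its replicate 3 lay with the other knockdown libraries as counted. *BCL2L1* held 58.2%, close to *BAX* and *BAK1*. Its log2 changes against the control mean were 0.26, -0.08 and 0.52 in knockdown libraries 1, 2 and 3 as counted. Whether GC content accounts for the values of replicate 3 was not tested. Against the control mean, the log2 changes of *BAX* in knockdown libraries 1, 2 and 3 were -0.25, -0.24 and 0.40 as counted, and -0.10, -0.07 and 0.14 after the trends of each library on GC content and length were removed. For *BAD* they were -0.38, -0.49 and 0.44 as counted and -0.10, -0.16 and 0.12 after the correction. For *BAK1* the changes were -0.30, -0.45 and 0.94 as counted and -0.14, -0.26 and 0.70 after it, so that this gene still had its highest value in replicate 3. After the correction the changes of *MCL1* were closer to each other, at 1.11, 1.14 and 1.13, as were those of *PMAIP1*, at 1.30, 1.19 and 1.16. *BBC3* went the other way, from 0.42, 0.48 and 0.60 as counted to 0.67, 0.81 and 0.22. *BCL2L2* also became less even, from 0.48, 0.53 and 0.11 to 0.47, 0.54 and -0.05, so that replicate 3 was no longer above the control mean. In the corrected fit the log2 fold change was 1.13 for *MCL1* (edgeR adjusted p = 2.81e-05), 1.22 for *PMAIP1* (edgeR adjusted p = 0.000164) and 0.59 for *BBC3* (edgeR adjusted p = 0.0157), so that the same members, *MCL1* and *PMAIP1*, were called.

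To compare the members with each other, counts were divided by the exonic length of each gene (RPKM, which is CPM per 1000 bases). The libraries were primed with oligo-dT, and whether reads were spread evenly along each gene was not tested. The order between genes of unlike length depends on this division. By CPM alone, the control means were 171 for *BAX*, 151 for *MCL1*, 121 for *BID*, 72.8 for *BBC3*, 59.3 for *BCL2L1* and 56.4 for *BAD*. In control cells *BAX* was the most abundant at 66.3 ± 9.79 RPKM, followed by *BAD* at 33.05 ± 2.74 and *BID* at 27.4 ± 1.40 RPKM (SD, n = 3). *MCL1* came next at 24.2 ± 1.20 RPKM, followed by *BBC3* at 22.9 ± 0.37, *BCL2L1* at 14.1 ± 1.95, *PMAIP1* at 10.05 ± 1.996, *BCL2L2* at 7.22 ± 0.66, *BAK1* at 4.29 ± 0.49 and *BCL2L11* at 1.04 ± 0.083 RPKM. No neighbours in this order overlapped across the 3 control libraries. In knockdown cells *MCL1* stood at 54.3 ± 3.15 RPKM and came next to the top, with libraries that overlapped those of *BAX* at 65.9 ± 18.0 RPKM. *BBC3* at 32.4 ± 2.12, *BAD* at 31.1 ± 11.8, *BID* at 26.8 ± 1.02 and *PMAIP1* at 24.9 ± 3.95 RPKM came next, and each overlapped its neighbour in that order. *BCL2L1* followed at 16.8 ± 3.46, below *PMAIP1* in knockdown cells and above it in control cells. *BCL2L2* at 9.42 ± 1.44, *BAK1* at 4.95 ± 2.92 and *BCL2L11* at 1.23 ± 0.033 RPKM remained the lowest. With the length of the longest transcript in place of all exons, *MCL1* was at 33.1 RPKM in control cells, place 5 in the order, and at 74.2 RPKM in knockdown cells, place 2.

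**Figure D3:**
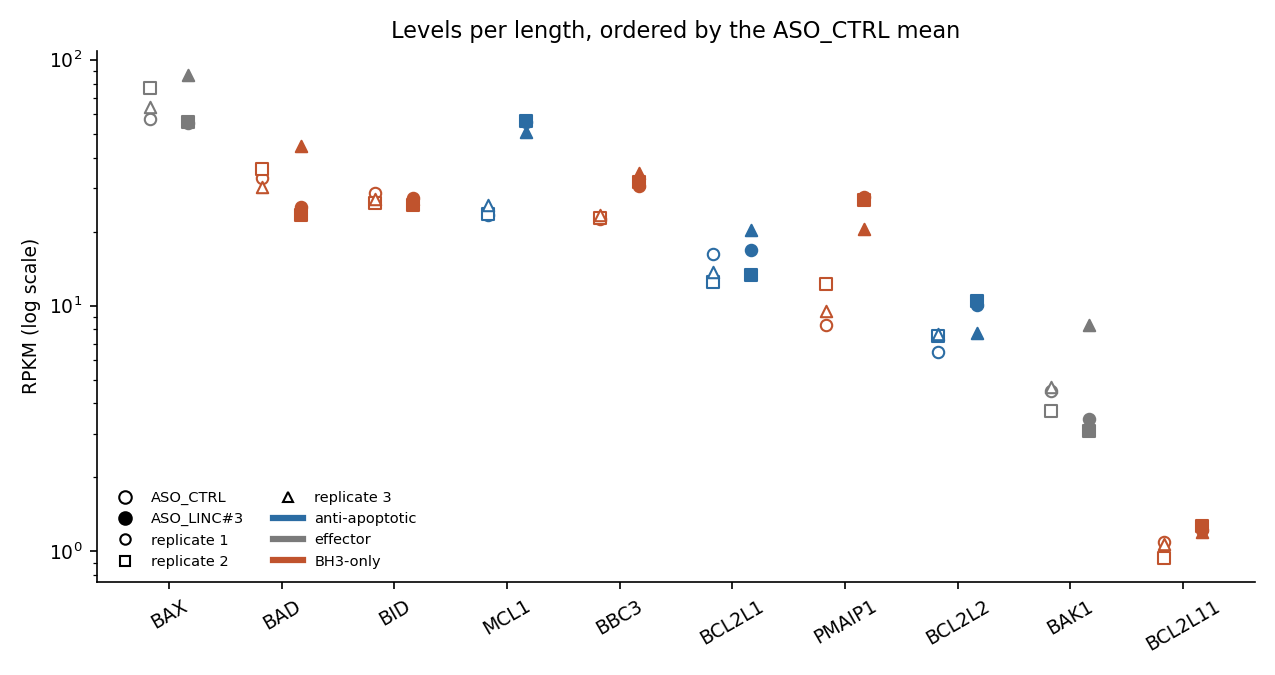
Level of each member per length, in RPKM on a log axis, ordered by the control mean, with a point per library. *MCL1* moves from 24.2 to 54.3 and *PMAIP1* from 10.05 to 24.9, while *BAX* is at 66.3 and 65.9 and *BID* at 27.4 and 26.8.

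Set by class, the anti-apoptotic genes had the largest difference in summed mRNA per length. *MCL1* made up most of their sum in every library, with a larger share in knockdown libraries. The summed level of *MCL1*, *BCL2L1* and *BCL2L2* was 43.6 to 47.0 RPKM in control and 78.7 to 82.5 RPKM in knockdown libraries. The share of *MCL1* in this sum was 50.7%, 54.2% and 54.5% in control and 67.4%, 70.5% and 64.4% in knockdown libraries. The effectors *BAX* and *BAK1* summed to 62.1 to 80.6 and 58.7 to 95.1 RPKM, with no separation of the conditions. The BH3-only genes summed to 91.4 to 97.7 RPKM in control and 109 to 128 RPKM in knockdown libraries. Of the RPKM of all 10 members, the anti-apoptotic genes held 21.7% ± 1.78 in control and 30.3% ± 3.70 in knockdown cells, the effectors 33.4% ± 2.80 and 26.1% ± 4.64, and the BH3-only genes 44.9% ± 1.37 and 43.5% ± 0.95 (SD, n = 3). These shares are parts of the same total, so a share can fall without a fall in its class. The effector sums averaged 70.6 RPKM in control and 70.9 RPKM in knockdown cells. Their shares overlapped, at 30.7% to 36.3% in control and 23.2% to 31.5% in knockdown libraries. The median log2 fold change was 0.39 for the 3 anti-apoptotic genes, 0.06 for the 2 effectors and 0.24 for the 5 BH3-only genes. These sums are of mRNA, rest on the same division by length, carry no test and say nothing of the amounts of protein.

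The balance between members was then read as a log2 ratio of CPM within each library, for 9 pairs. With 3 libraries against 3 the two-sided exact permutation test cannot give a p below 0.1, so that no ratio could pass 0.05. The ratio of *MCL1* to *BCL2L1* was 1.09, 1.49 and 1.46 in control and 2.29, 2.65 and 1.89 in knockdown libraries. The conditions did not overlap, and the mean was higher by 0.93 (exact permutation p = 0.1, adjusted 0.225 over the 9 ratios). Against *BCL2L2*, *MCL1* was higher by 0.79, with the same p-values. *BBC3* and *BCL2L11* were lower relative to *MCL1*, with differences of -0.66 and -0.92 and no overlap of the conditions (exact permutation p = 0.1 for both). All ratios without overlap hold *MCL1*, which was itself called higher, so they are not separate from its rise. The ratio of *PMAIP1* to *MCL1* differed from these. It was -2.97, -2.44 and -2.92 in control and -2.51, -2.58 and -2.81 in knockdown libraries, so that the conditions overlapped and the difference was 0.14 (exact permutation p = 0.5, adjusted 0.5625). Relative to *BCL2L1*, the differences of *BAX*, *BAK1*, *BID* and *BAD* were -0.26, -0.17, -0.26 and -0.38, with exact permutation p-values of 0.4, 0.7, 0.2 and 0.2.

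**Figure D4:**
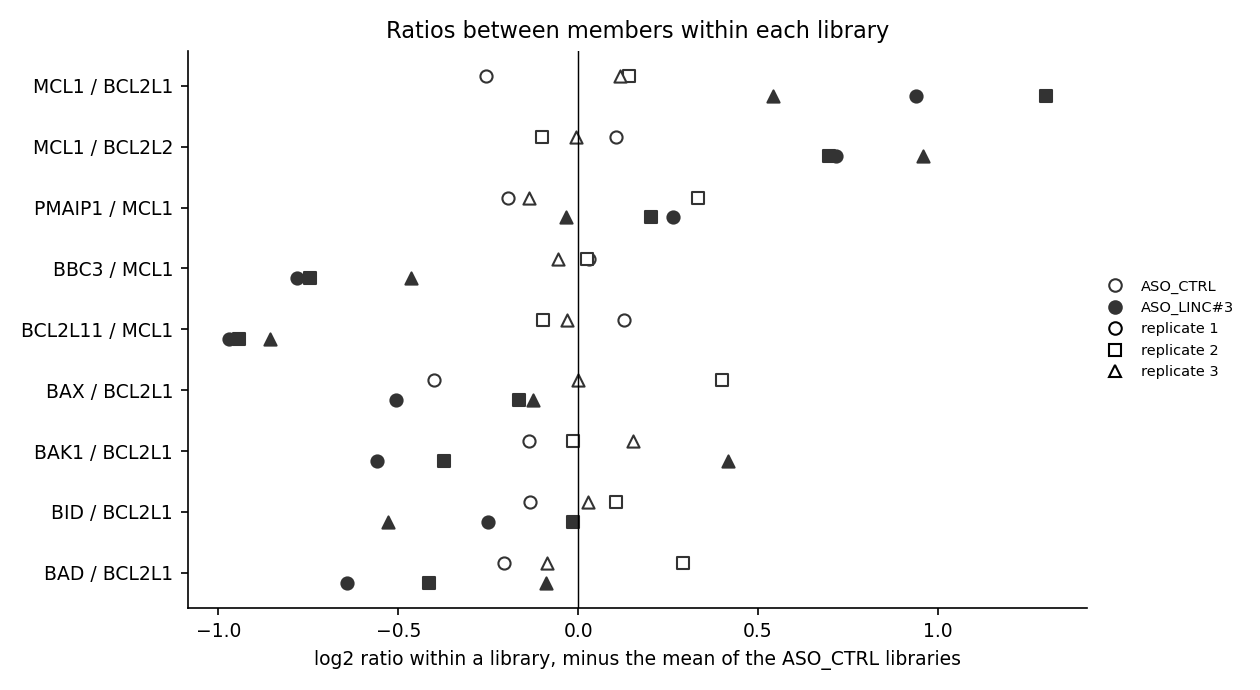
Log2 ratios of CPM between pairs of members within each library, with a point per library, drawn after the mean of the ASO_CTRL libraries was subtracted for each pair. Before the subtraction, the ratio of *MCL1* to *BCL2L1* is 1.35 on average in ASO_CTRL and 2.27 in ASO_LINC without overlap. The ratio of *PMAIP1* to *MCL1* is -2.78 and -2.63 with overlap.

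For *MCL1*, the genes whose log2 CPM followed it most closely over the 6 libraries, among 10220 with a mean of at least 50 reads, were *ITGA2*, *PTX3* and *VEGFA* (Pearson's r above 0.999, log2 fold changes 3.14, 2.36 and 2.17). For *PMAIP1* they were *PBX3*, *DDX42* and *ERO1L* (r = 0.998, 0.998 and 0.997, log2 fold changes 1.19, 0.25 and 1.89). The 6 points fall into the 2 conditions, so that these values mostly rank genes by how cleanly the conditions separated, and they carry no test.

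To show the DNA in front of the BH3-only and effector genes, 250 bases before the start were read from the RefSeq promoter table (GRCh38.p14), which held 8 of the 10 members. The letters searched on both strands were TGACG and TGACGTCA (the short and full cyclic AMP response element), TGATGCAA (a composite C/EBP and ATF element), TGAGTCA (the AP-1 element) and ACGTG (the core of an E-box and of the hypoxia response element). They were found in 21.2%, 1.65%, 0.772%, 4.2% and 18.5% of 35116 promoters of this length. *PMAIP1*, which rose, *BBC3*, which did not pass the test, and *BAX*, which did not differ detectably, are printed 5′ to 3′ on the strand of the gene, with matches in capitals.
PMAIP1: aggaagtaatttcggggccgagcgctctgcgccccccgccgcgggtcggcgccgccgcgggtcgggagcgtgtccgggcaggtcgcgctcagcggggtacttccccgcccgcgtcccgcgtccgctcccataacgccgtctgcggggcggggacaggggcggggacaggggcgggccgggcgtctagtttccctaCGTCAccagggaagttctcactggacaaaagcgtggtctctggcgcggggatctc
BBC3: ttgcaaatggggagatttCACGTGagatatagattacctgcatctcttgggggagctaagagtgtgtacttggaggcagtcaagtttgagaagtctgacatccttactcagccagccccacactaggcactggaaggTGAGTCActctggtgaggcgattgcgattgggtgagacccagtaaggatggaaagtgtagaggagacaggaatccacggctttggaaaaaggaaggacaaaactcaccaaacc
BAX: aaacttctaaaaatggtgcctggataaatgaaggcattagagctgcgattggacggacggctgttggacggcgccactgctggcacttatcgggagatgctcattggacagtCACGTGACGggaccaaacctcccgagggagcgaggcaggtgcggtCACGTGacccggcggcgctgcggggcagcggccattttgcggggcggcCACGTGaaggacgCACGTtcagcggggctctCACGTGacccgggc
*PMAIP1* (chr18:59899746-59899995, forward strand) held 1 TGACG, 55 bases before the start and read as CGTCA on this strand. *BBC3* (chr19:47232668-47232917, reverse strand) held 1 TGAGTCA at 113 bases and ACGTG at 232 bases, inside a CACGTG. *BAX* (chr19:48954625-48954874, forward strand) held 5 sites with ACGTG, at 138, 93, 45, 32 and 14 bases, and a TGACG at 134 bases that overlaps the first of them. TGACG was also found before *BAD*, at 54 or 93 bases depending on the start, and before a start of *BCL2L1*, at 201 bases. Neither gene passed the test, so this element was not particular to the gene that rose. ACGTG was also found before some starts of *BID*, at 106 or 47 bases. TGACGTCA and TGATGCAA were in none of the promoters searched of these 8 members. *BID*, *BAD* and *BCL2L1* had more than 1 start, and each was searched. A match in these letters is a description of the sequence and does not show that a factor binds there.

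Around the members, 41 reported genes of 6 further lists on the same pathway were tested and 10 were called, 7 higher and 3 lower, beside 7.54%, 4.91% and 2.63% of all tested genes. Of the other BCL2 family genes, 6 of 11 were tested and 1 was called. *BCL2A1*, an anti-apoptotic gene, rose from 0.81, 0.34 and 1.05 CPM to 5.57, 6.15 and 3.51 CPM, which is 2 to 11 reads against 13 to 38 (log2 fold change 2.70, SE 0.38, edgeR adjusted p = 0.00103). This was the largest log2 fold change among the tested family genes. *HRK* and *BIK*, both BH3-only genes, had log2 fold changes of 0.88 and 0.76 with edgeR adjusted p-values of 0.0375 and 0.0582. *BCL2*, *BCL2L10*, *BMF*, *BCL2L14* and *BCL2L15* were not analysed here.

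Of the 3 genes for BH3-like proteins outside the family, 2 rose. *BNIP3* and *BNIP3L* encode mitochondrial outer membrane proteins that act as receptors for mitophagy and are known targets of hypoxia-inducible factor. *BNIP3* went from 31.3 ± 4.40 to 139 ± 19.5 CPM and *BNIP3L* from 106 ± 10.1 to 416 ± 92.6 CPM (SD, n = 3), with log2 fold changes of 2.15 and 1.97 (edgeR adjusted p = 2.64e-05 and 6.83e-05). *BECN1*, the autophagy gene of beclin 1, had 0.45 (edgeR adjusted p = 0.0305).

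Downstream of the mitochondrion, 14 of 15 genes of the apoptosome, the caspases and their inhibitors were tested, and 1 was called. *CASP6*, an executioner caspase, fell from 79.5 ± 4.01 to 49.2 ± 4.49 CPM (log2 fold change -0.69, edgeR adjusted p = 0.0058). The caspase inhibitor *BIRC2* and the apoptosome scaffold *APAF1* had log2 fold changes of 0.96 and 0.58 with edgeR adjusted p-values of 0.0151 and 0.0586. Of the 3 voltage-dependent anion channels of the outer membrane 0 were called, with *VDAC3* at -0.34 and *VDAC1* at 0.10.

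Of the 6 enzymes that add or remove ubiquitin on MCL1, 5 were tested, 2 fell and 0 rose, with a median log2 fold change of -0.54. *HUWE1*, a ubiquitin ligase of MCL1, fell from 54.0 ± 6.90 to 31.1 ± 5.31 CPM, and *USP13*, a deubiquitinase that stabilises it, fell from 13.98 ± 1.16 to 7.71 ± 0.45 CPM (log2 fold changes -0.81 and -0.86, edgeR adjusted p = 0.00804 and 0.00957). These enzymes have opposite actions on the protein. *BTRC* and *FBXW7*, which encode substrate receptors of ubiquitin ligases, had log2 fold changes of -0.54 and 0.41 (edgeR adjusted p = 0.0575 and 0.211), and *FBXW7* was the one tested gene of this list above 0.

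Of 11 reported genes of transcription factors known to act on the BH3-only genes or *MCL1*, 10 were tested and 4 rose. *ATF3* went from 24.7 ± 0.47 to 89.4 ± 7.33 CPM and *DDIT3*, which encodes CHOP, from 61.8 ± 4.42 to 189 ± 21.0 CPM (log2 fold changes 1.85 and 1.61, edgeR adjusted p = 1.97e-05 and 5.21e-05). Both are stress-response genes. *FOXO3* went from 15.6 ± 0.40 to 29.5 ± 5.35 CPM and *JUN* from 293 ± 21.5 to 458 ± 23.3 CPM (log2 fold changes 0.93 and 0.65, edgeR adjusted p = 0.00479 and 0.00467). *ATF4* and *MYC* had log2 fold changes of 0.72 and 0.57, and edgeR adjusted p-values of 0.0150 and 0.0144 that did not pass.

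**Figure D5:**
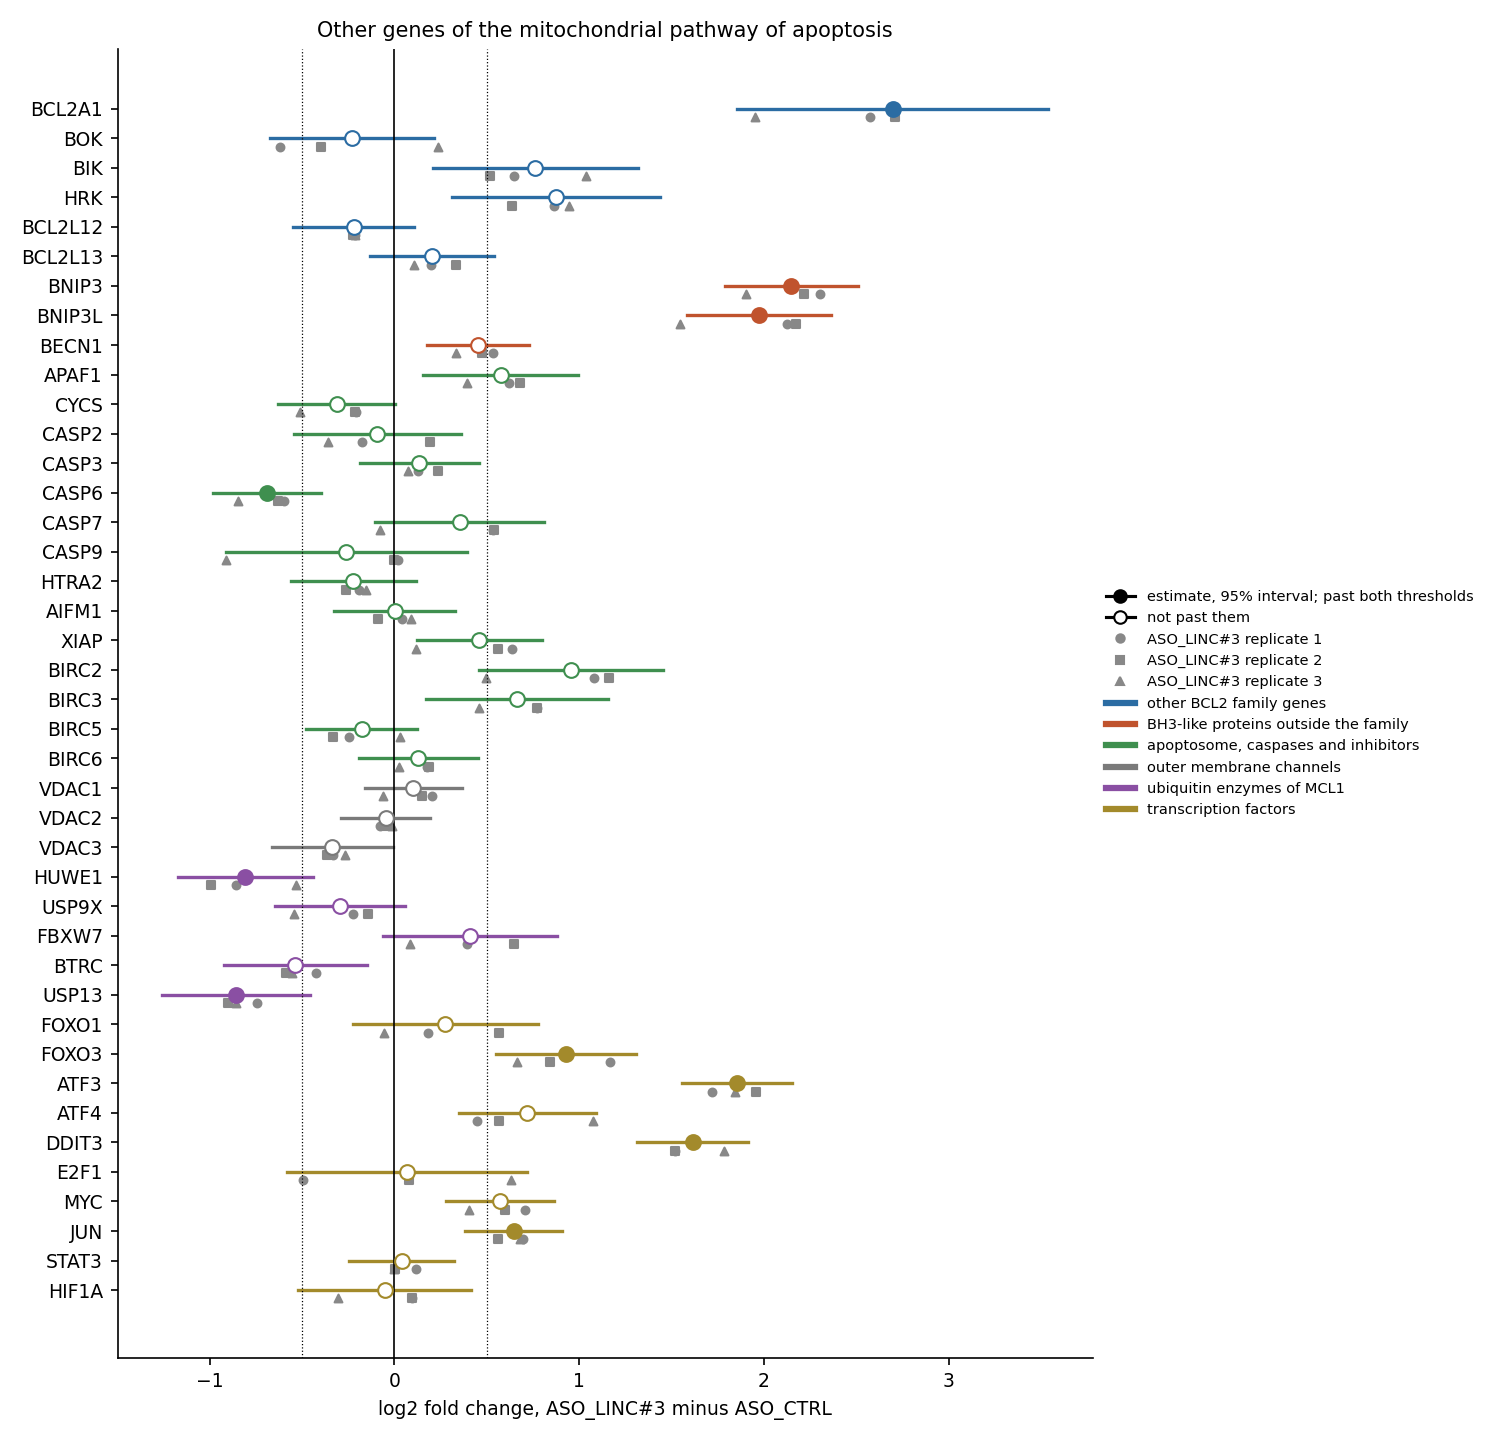
Log2 fold change with 95% confidence interval of the reported genes tested in the 6 further lists, grouped by list, with called genes marked. *BCL2A1*, *BNIP3*, *BNIP3L*, *ATF3* and *DDIT3* have the largest called values (1.61 to 2.70), and *CASP6*, *HUWE1* and *USP13* are the called genes below 0 among those plotted.

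*BCL2A1*, *BNIP3*, *BNIP3L*, *ATF3* and *DDIT3* were called in each of the 6 fits that left out a library. *CASP6*, *HUWE1*, *USP13*, *FOXO3* and *JUN* were called without ASO_LINC replicate 3, and lost their call without any of the other 5 libraries, with edgeR adjusted p-values of 0.0117 to 0.0450. The lists were drawn up with earlier results of these data known, so that their counts are a description.

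Some counts can hold reads of a neighbour, since the strand setting of the counting is not given in the sources used here. *BAD* shares 404 exonic bases with *GPR137* on the opposite strand, which had a log2 fold change of -0.43 (edgeR adjusted p = 0.216). *BCL2L2* shares 464 exonic bases with *HOMEZ* and *PPP1R3E* on the opposite strand, and 815 with the readthrough gene *BCL2L2-PABPN1* on its own strand. *BCL2L1* shares 1735 with *ABALON*, *BCL2L11* 727 with *MIR4435-2HG*, *BAK1* 91 with *GGNBP1* and *MCL1* 43 with *ADAMTSL4*. *MCL1* also shares 328 exonic bases with *ADAMTSL4-AS1* on its own strand. For *ADAMTSL4-AS1* and *BCL2L2-PABPN1* a strand setting would not separate the reads. The part of these overlaps in the values above was not tested.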

How the data were processed

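RNA-seq was analysed from 3 ASO_CTRL and 3 ASO_LINC libraries of H226 cells, primed with oligo-dT. The authors aligned reads to hg19 with STAR and deposited raw counts per gene name, without normalization or pooling. The counting tool and strand setting are not given in the sources used here, and the paragraph on RNA-seq in the study's methods names BJ cells where the labels name H226, which was followed. The table held 0 columns of other samples. Reads on no gene (4 rows, 24.8% to 28.1% per library) were left out. The 10 members and the further lists were chosen with earlier results of these data known, and an item of the lists is not reported here.

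The comparison used edgeR 4.0.16 in R 4.3.3 (filterByExpr, TMM, glmQLFit, no block), and genes were called at a Benjamini-Hochberg adjusted p below 0.01 and a log2 fold change beyond 0.5. The common biological coefficient of variation was 0.159. Standard errors were not given by the fit. Each was derived as the absolute log2 fold change over the square root of its F statistic. The 95% confidence intervals used this value and the t distribution. Changes of single libraries and ratios used log2 CPM with a prior count of 2. Exon lengths and GC content, the latter of the longest transcript of each gene, came from the annotation on GRCh37 and covered 87.2% of tested genes. Libraries of a condition differed by more than sampling noise (chi-square per degree of freedom 2.50 to 14.0). Every member is named, and of the further lists every called gene and the 2 others with the smallest p. *BOK*, *GPR137* and *BAK1P1* were named after their values were seen. For the called members, the 3 genes with the highest Pearson correlation are named. Alternatives were DESeq2 1.42.0, limma-voom (limma 3.58.1), other scalings and filters, a replicate block, offsets for GC content and length (spline with 5 degrees of freedom), an adjusted p below 0.05, and leaving out each library. The length of the longest transcript was added after seeing the data. On simulated counts of 14452 genes for this comparison, 83 of 100 genes changed by a log2 of 1 and 100 of 100 changed by 2 were called, with 4 unchanged genes called. The simulation gave every gene the common biological coefficient of variation and no library a trend on GC content. Its changed genes had a mean of at least 50 reads. These counts therefore do not cover genes with fewer reads or a library with such a trend.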

Additional observations from a re-analysis of the deposited data

How the results depend on the processing

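*MCL1* was called under every alternative run, and *PMAIP1* under every one except without ASO_CTRL replicate 3. The number of members called was 1 to 3 when libraries were left out in turn (3 without ASO_LINC replicate 3, with *BCL2L2*), and 3 with DESeq2 or at an adjusted p below 0.05, with *BBC3*. The number of further pathway genes called was 10, 5 to 16 when libraries were left out (16 without ASO_LINC replicate 3, among them *BOK* at -0.51), and 5 with the replicate number as a block. Same-numbered libraries did not deviate together (correlations 0.068, -0.243 and -0.291), and of the 6 libraries 1, ASO_CTRL replicate 1, correlated best with its own number, so that the numbers were not taken to pair the samples; the block left *MCL1* and *PMAIP1* called and lowered the calls over all genes from 1106 to 656. The correction for GC content and length gave 1739, and leaving out libraries 359 to 2616.

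The log2 fold changes of *BAX*, *BAK1*, *BID* and *BAD*, at -0.01, 0.13, -0.03 and -0.10 in the fit to all libraries, changed sign between settings. Not all of the values reached were near 0. Without ASO_LINC replicate 3 the interval of *BAD* was -0.70 to -0.17 (edgeR adjusted p = 0.0172). *BAK1* was -0.0399 with limma-voom, and leaving out libraries gave -0.40 (without ASO_LINC replicate 3) to 0.38, *BAX* was 0.0028 scaled by library size alone, and leaving out libraries gave -0.25 to 0.12 for *BAX*, -0.0582 to 0.0096 for *BID* (the latter without ASO_CTRL replicate 1 and 0.0021 without ASO_LINC replicate 2) and -0.44 to 0.0690 for *BAD* (0.0313 without ASO_LINC replicate 1). *BAX* was 0.12 without ASO_CTRL replicate 2 and 0.10 without ASO_LINC replicate 1 or 2. The ratio of *BAK1* to *BCL2L1* ranged from -0.47 to 0.0218. The cause was not tested. *BAK1* and *BCL2L11*, with 30 to 108 reads per library, are the members that depth limits most.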
